A study of Bos taurus and Sus scrofa with 10 samples.

Results

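The SLC25 family encodes the mitochondrial carriers, the membrane proteins that move nucleotides, phosphate, metabolites and cofactors across the inner mitochondrial membrane. Its transcripts were followed up to the blastocyst in the cow (Bos taurus) and in the pig (Sus scrofa). Members were all gene rows whose symbol starts with SLC25A followed by a digit. This gave 40 of 22845 gene rows in cow and 33 of 21867 in pig. Of the 42 symbols found in either species, 31 had a row in both, 9 in cow only (SLC25A1, SLC25A11, SLC25A15, SLC25A30, SLC25A34, SLC25A37, SLC25A42, SLC25A44 and SLC25A48) and 2 in pig only (SLC25A2 and SLC25A23). No member symbol was repeated within a species. The well-known members SLC25A6, SLC25A10, SLC25A18, SLC25A41, SLC25A51 and SLC25A52 had no row under these symbols in either species and could not be analysed.

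Total RNA of oocytes, morulae and blastocysts was sequenced in both species, as was that of embryos with 2-4 cells and with 8-16 cells, which makes 5 stages. A single library stands for each stage in a species, 10 in all. Differences therefore lack a replicate check, and p-values are not given. No treatment or genotype was named. The number of oocytes or embryos per library, the breed and the way the embryos were produced are not given in the sources used here. Values are reads per 1000000 library reads (RPM) without correction for gene length, so levels are compared between stages of 1 gene. Shares of reads among genes depend on gene length too, and are given to be compared between stages. A difference is that of log2(RPM + 1). A gene was compared where 1 of both stages had at least 1 RPM, and it was called higher or lower once that difference reached 2 (4-fold on the scale used, which understates the change of low genes). Folds are ratios of RPM with 95% exact binomial intervals from the reads. The intervals of levels and shares are 95% Wilson intervals. Both kinds cover counting error only, and not variation between embryos. They may understate even the counting error, because amplified reads are not independent molecules. A count of 0 reads allows up to 3 reads (0.212 to 0.999 RPM, depending on the library), and folds against 0 reads are given as lower bounds on that basis.

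Carriers of this family are built on a common fold and are made in the cytosol, imported through the outer membrane pore and inserted by a dedicated inner membrane complex. The ADP/ATP carriers exchange the ATP made inside the organelle for cytosolic ADP, and the phosphate carrier supplies the phosphate that ATP synthase needs. Other members carry citric acid cycle intermediates, amino acids, coenzyme A, folate, S-adenosylmethionine, pyrimidine nucleotides or iron. A few members lie elsewhere: SLC25A17 is a peroxisomal carrier and SLC25A46 sits in the outer mitochondrial membrane. Before implantation, embryos run on mitochondria inherited from the oocyte, and maternal transcripts are replaced by embryonic ones when the embryonic genome becomes active.

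Library totals ranged from 3002751 reads (pig morula) to 14182046 reads (cow blastocyst), and the other libraries held between 3166110 and 5432346. Genes of the mitochondrial genome took 2.74% to 10.7% of the reads in the cow libraries before the blastocyst and 30.2% in the cow blastocyst. In pig they took 6.06% to 18.6%. The markers followed the stage labels: from oocyte to blastocyst 12 of 12 oocyte markers were lower in cow and 9 of 10 in pig, while 9 of 10 compared blastocyst markers were higher in each species. Cumulus cell markers summed to 342 RPM in the cow oocyte and 40.3 to 347 RPM in the other cow libraries (11 rows), and to 58.9 RPM in the pig oocyte and 17.3 to 61.6 RPM in the other pig libraries (7 rows). In the cow oocyte 7 of the 11 rows had reads, mostly STAR (157 RPM), HAS2 (141 RPM) and FSHR (37.3 RPM). There CYP11A1, AMH, FOXL2 and LHCGR were at 0 reads. In the pig oocyte 4 of the 7 rows had reads, and TNFAIP6, CYP11A1 and INHBA were at 0 reads. The part of cumulus cells in the results was not tested. In whole embryos, fewer cells of a type and less RNA per cell cannot be told apart.

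From oocyte to blastocyst, carrier genes changed in both directions. In cow, 11 of 35 compared members were higher (31.4%; 21.8% of all compared genes were higher) and 7 were lower (20%; 18.4% of all). In pig, 7 of 30 were higher (23.3%, against 26.0% of all) and 3 were lower (10%, against 19.2% of all). The pig counts moved to 7 higher and 6 lower with median scaling, and to 6 and 5 with quantile normalisation. The median difference of the compared members was 0.15 in cow, against 0.18 over all 12738 compared genes. In pig it was 0.70, against 0.43 over all 12512. As a set, then, the members moved both ways. Against all genes, the share higher was larger in cow (31.4% against 21.8%) and the share lower was smaller in pig (10% against 19.2%). These gaps were not tested, and the results below lie in which carriers moved.

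Change was unevenly spread over the steps, which was not particular to the carriers. Over all genes too, cow calls were fewest at the first step and most at the next. Pig calls over all genes mostly came after the 8-16 cell stage. From the oocyte to the 2-4 cell stage no member passed the threshold in either species, of 29 compared in cow (0.196% of all genes were higher and 0.178% lower) and 28 in pig (3.26% higher and 2.17% lower). The next cow step, from the 2-4 to the 8-16 cell stage, had 12 calls. This was the most of the cow steps except under quantile normalisation (9 here and 9 from morula to blastocyst). Here 8 of 32 members were higher (25.0%, against 12.6% of all genes) and 4 lower (12.5%, against 14.6% of all). With median scaling 9 were higher and 1 lower, and with quantile normalisation 8 and 1. The same step in pig had 1 of 29 members higher, SLC25A3 (3.45%, against 4.33% of all genes), and 0 lower (0.543% of all). From the 8-16 cell stage to the morula, 1 of 31 cow members was higher (3.23%, against 6.67% of all genes) and 4 were lower (12.9%, against 5.15%). In pig this step had 8 of 28 members higher (28.6%, against 12.0% of all genes) and 3 lower (10.7%, against 11.3%). These were 11 calls against 7 at the next step. With a threshold of 1 the order turned, with 17 and 19. From the morula to the blastocyst, 5 of 35 cow members were higher (14.3%, against 11.9% of all genes) and 4 lower (11.4%, against 11.5%). In pig 4 of 28 were higher (14.3%, against 13.8% of all) and 3 lower (10.7%, against 13.8%). The map of members by stage shows this timing as colour changes between the columns of these steps.

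**Figure D1:**
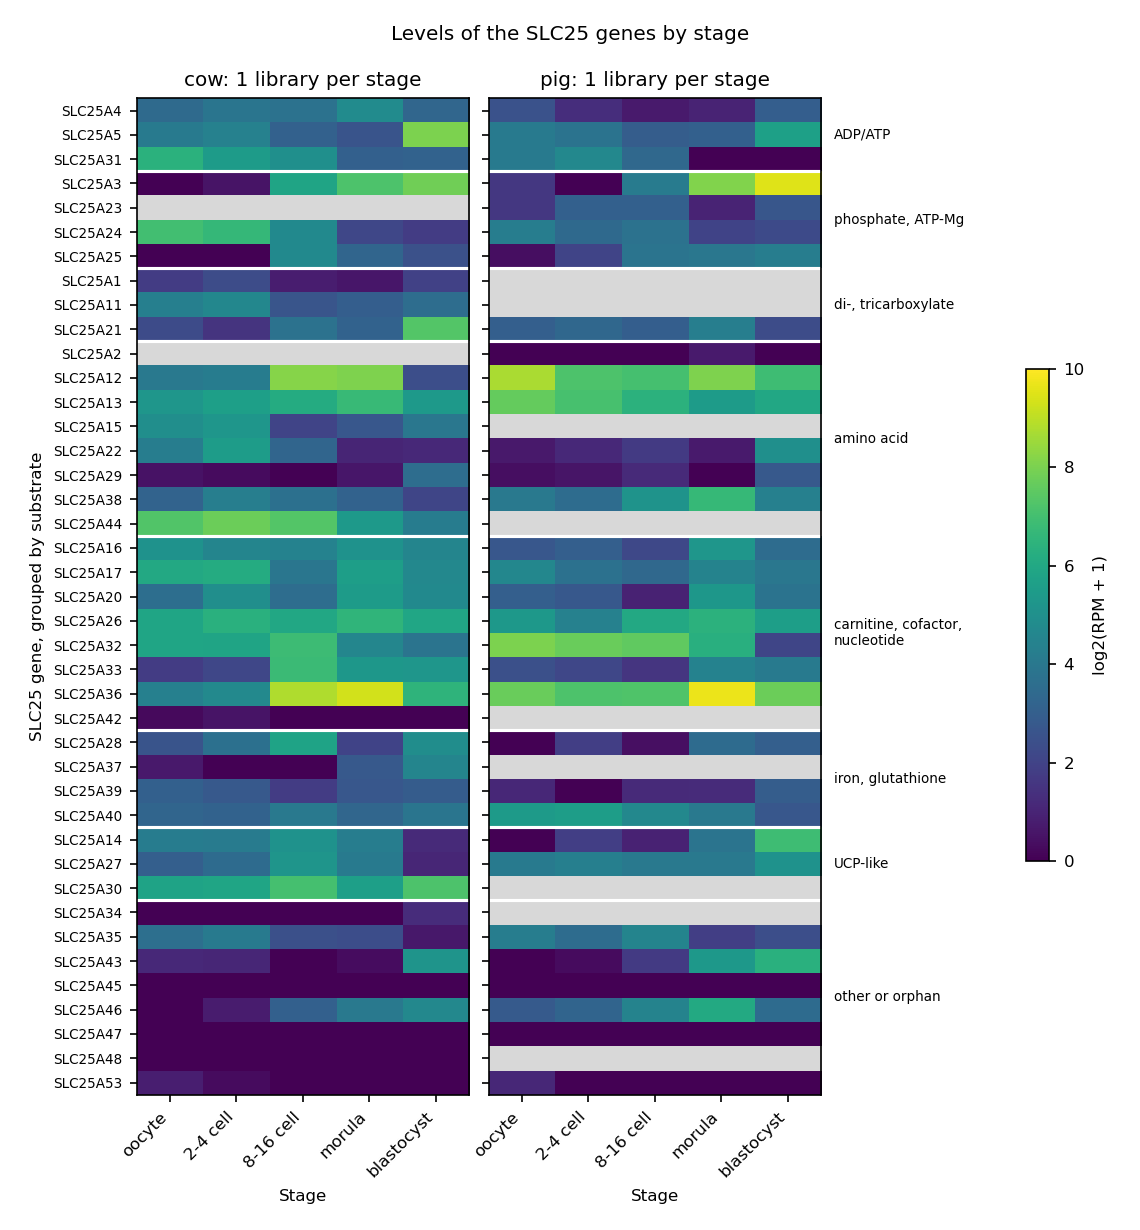
Level of the SLC25 members, 1 left out, in each library, as log2(RPM + 1), by stage (columns) for cow and pig (1 library per stage); grey marks a symbol with no row in that species. Rows can be read across stages but not against each other, since values are not divided by gene length. SLC25A3 has 0 reads in the cow oocyte and 225 RPM in the cow blastocyst, against 2.07 and 728 RPM in the pig.

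The stage of the highest level also differed between members. The highest value was taken without regard to counting error, so some of these stages are not resolved. For example, intervals overlapped for cow SLC25A12 (286 RPM at the 8-16 cell stage, 269 in the morula). They also overlapped for cow SLC25A39 (7.30 RPM in the oocyte, 6.56 in the blastocyst). Of the cow members, 4 were highest in the oocyte, 8 in the 2-4 cell embryo, 9 in the 8-16 cell embryo, 6 in the morula and 9 in the blastocyst. The other 4 cow members (SLC25A42, SLC25A45, SLC25A47 and SLC25A48) had no more than 3 reads in any cow library. In pig the counts were 6, 3, 1, 9 and 11, and SLC25A2, SLC25A45 and SLC25A47 were at or below 3 reads throughout. Members with at least 1 RPM numbered 28 to 34 of 40 in the cow libraries and 23 to 28 of 33 in the pig libraries.

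The ADP/ATP carriers changed places. SLC25A31, known for its expression in the germ line, had 82.2 RPM in the cow oocyte (95% interval 74.5 to 90.6), 44.4 at the 2-4 cell stage, 30.9 at the 8-16 cell stage, 7.44 in the morula and 7.90 in the blastocyst. From oocyte to blastocyst it fell 10.4-fold (8.42 to 12.9). SLC25A5, the carrier of dividing somatic cells, went the other way in cow, with 16.6, 19.8, 7.55 and 5.13 RPM up to the morula and 263 RPM in the blastocyst. This was a 51.2-fold rise over the last step (33.1 to 83.9) and 15.8-fold over the oocyte (12.7 to 19.9). SLC25A4, the carrier of heart and muscle, stayed between 8.88 and 27.4 RPM in cow and was not called at any step.

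In pig, SLC25A31 had 16.0, 24.4 and 9.48 RPM at the first 3 stages and 0 reads in both the morula and the blastocyst, at least 19.9-fold lower in the blastocyst than in the oocyte. Pig SLC25A5 had 16.6, 13.0, 6.63 and 7.33 RPM and then 50.4 RPM in the blastocyst. It rose 6.88-fold over the last step (4.41 to 11.2). Against the oocyte its difference was 1.55, short of the threshold. SLC25A4 had between 0.632 RPM (2 reads) and 6.97 RPM in pig and was not called at any step. From morula (0.999 RPM, 3 reads) to blastocyst (6.97 RPM) its difference of 1.995 just missed the threshold. It was called there with a pseudocount of 0.5 RPM, with scaling to gene-row reads outside the mitochondrial genome and with thinning. The rise over the last pig step was thus not particular to SLC25A5. Both species thus had less SLC25A31 in the morula and blastocyst than at the earlier stages (0 reads in pig only) and more SLC25A5 reads in the blastocyst than in the morula.

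Shares were taken of the reads of the 3 ADP/ATP carriers with a row. They leave out SLC25A6, which had none under that symbol, and could differ with it. SLC25A31 made up 75.6% in the cow oocyte (71.7 to 79.0) and 56.9% and 60.4% in the cleavage stages. It made up 18.6% in the cow morula and 2.83% in the blastocyst. SLC25A5 made up 15.3% in the cow oocyte and 94.0% in the blastocyst (93.2 to 94.7). Between them, the cow morula was the stage at which SLC25A4 held the most, 68.6%. In pig the SLC25A31 share was 42.9% in the oocyte (34.6 to 51.6), 62.7% and 56.6% at the next stages, then 0 of 25 reads in the morula, which allows up to 12%, and 0 of 214 in the blastocyst, which allows up to 1.40%. SLC25A5 held 44.4% in the pig oocyte and 87.9% in the blastocyst (82.8 to 91.6). Shares do not depend on the scale of a library, and each gene keeps its length between stages. How reads matching more than 1 place were counted is not given in the sources used here, so reads of near-identical copies, which the ADP/ATP and phosphate carriers are known to have, may be split or lost.

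**Figure D2:**
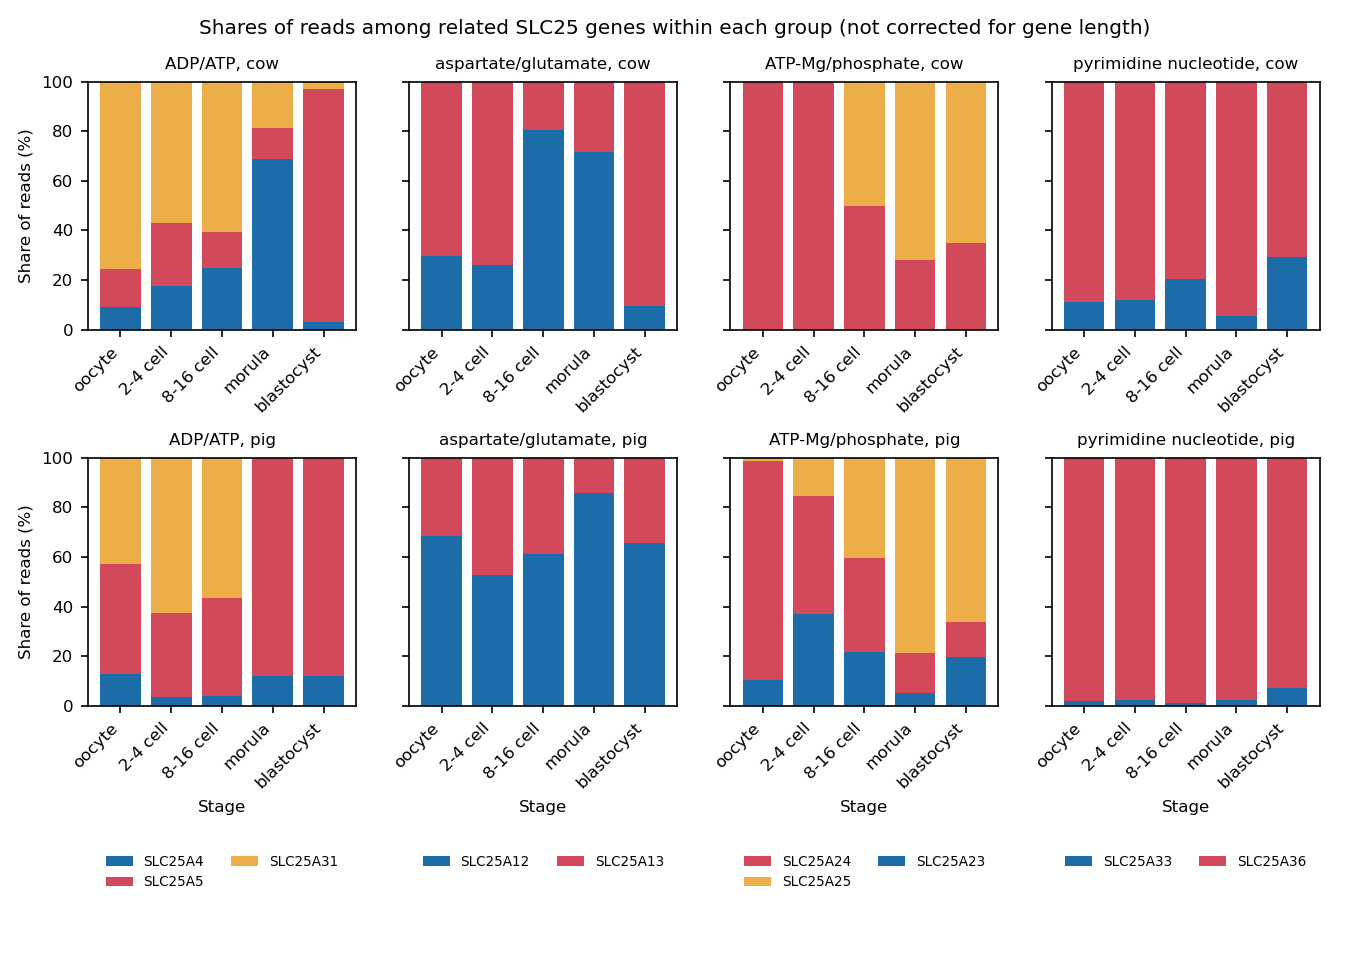
Share of reads (percent, bars stacked to 100) held by each gene of 4 groups of related carriers, by stage, in cow (top) and pig (bottom), 1 library per bar. Genes without a row (SLC25A6 in both species, SLC25A23 in cow) are not included. SLC25A31 shrinks from 75.6% to 2.83% of the ADP/ATP carrier reads in cow and from 42.9% to 0 of 214 reads in pig. The share of SLC25A25 grows in the ATP-Mg/phosphate group of both species, in cow while the group falls from 125 to 7.05 RPM.

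SLC25A5 lay beside another member of the family in both species. On the deposited coordinates, it was on chromosome X at 3696978 to 3701262 in cow (UMD3.1) and 97919295 to 97922310 in pig (Sscrofa11.1). Its neighbour SLC25A43, a carrier of unassigned substrate, was at 3646867 to 3687086 in cow and 97868611 to 97906760 in pig. SLC25A31 was on cow chromosome 17 (30291318 to 30319495) and pig chromosome 8 (97096224 to 97120827). SLC25A43 had 1.22, 1.13, 0, 0.256 (1 read) and 35.3 RPM over the cow stages, and was 29.0-fold higher in the blastocyst than in the oocyte (13.2 to 79.5). The pig values were 0 reads in the oocyte, 1 read (0.242 RPM) at the 2-4 cell stage, then 2.21 RPM at the 8-16 cell stage, 39.0 in the morula and 81.0 in the blastocyst. It was at least 91.2-fold higher in the pig blastocyst than in the oocyte. Like SLC25A5, then, SLC25A43 was highest in the blastocyst of both species, but in pig it was already called higher one step earlier, from the 8-16 cell stage to the morula.

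The phosphate carrier SLC25A3 had the widest range over the stages of all members in both species on the log2(RPM + 1) scale. In cow it had 0 reads in the oocyte (a limit of 0.609 RPM), 2 reads (0.451 RPM) at the 2-4 cell stage, then 55.8 RPM at the 8-16 cell stage, 148 in the morula and 225 in the blastocyst. It was at least 370-fold higher in the cow blastocyst than in the oocyte. Pig libraries held 2.07 RPM of it in the oocyte (7 reads), 0 reads at the 2-4 cell stage, then 17.1 RPM at the 8-16 cell stage, 271 in the morula and 728 in the blastocyst. The rise from the pig oocyte to the blastocyst was 351-fold (170 to 875). In both species SLC25A3 thus had next to no reads up to the 2-4 cell stage, and each later stage had a higher value than the one before. The gene was on chromosome 5 in both species, at 63086353 to 63092547 in cow and 85284316 to 85292451 in pig.

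The ATP-Mg/phosphate carriers adjust the adenine nucleotide pool of the matrix and respond to calcium. Among them the larger share of reads passed from SLC25A24 to SLC25A25. SLC25A24 had 125 RPM in the cow oocyte (116 to 135), 99.6 at the 2-4 cell stage, 26.0 at the 8-16 cell stage, 3.33 in the morula and 2.47 in the blastocyst. It fell 50.7-fold from oocyte to blastocyst (36.1 to 73.5). SLC25A25 had 0 reads in the cow oocyte and 2-4 cell embryo, then 26.0, 8.46 and 4.58 RPM, at least 7.53-fold higher in the blastocyst than in the oocyte. This last call was lost where a level of 5 RPM was required.

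In pig, SLC25A24 had 17.8, 9.67, 12.6, 3.0 and 3.75 RPM, a difference of −1.98 from oocyte to blastocyst that just missed the threshold. Pig SLC25A25 had 1 read in the oocyte (0.296 RPM), then 3.14, 13.6, 14.7 and 18.0 RPM, a ratio of 60.7 whose interval, 10.5 to 2432, is wide because of that single read. SLC25A23, also of this group, had between 0.999 RPM (3 reads) and 7.49 RPM in pig and was called lower from the 8-16 cell stage to the morula. SLC25A24 made up all 617 reads of the group in the cow oocyte and 35.0% in the blastocyst (26.4 to 44.7). In pig its share went from 88.2% in the oocyte to 13.9% in the blastocyst, and that of SLC25A25 from 1.47% to 66.3%.

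Among the carriers of citric acid cycle intermediates, SLC25A21 stood out in cow. It carries oxoadipate, a breakdown product of lysine and tryptophan, and had 3.85, 1.80, 12.5, 7.95 and 160.0 RPM over the cow stages. The rise was 20.1-fold over the last step (14.1 to 29.7) and 41.5-fold from the oocyte (26.5 to 69.1). In pig SLC25A21 was not called at any step, with 7.11, 9.18, 6.95, 18.3 and 4.02 RPM. Its difference of −1.94 from morula to blastocyst just missed the threshold for a fall. It was called lower there with a pseudocount of 0.5 RPM, with scaling to gene-row reads outside the mitochondrial genome and with quantile normalisation. The pig gene overlaps PAX9 on the other strand over 0.514% of its span, and PAX9 had 6.51, 13.0, 5.05, 13.7 and 0.268 RPM. Strand handling in counting is not given in the sources used here, so reads of genes that overlap cannot be told apart.

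SLC25A11, the oxoglutarate/malate carrier of the malate-aspartate shuttle, fell in cow from 23.7 RPM at the 2-4 cell stage to 5.15 RPM at the 8-16 cell stage, 4.59-fold (3.0 to 7.24). Its difference of −2.002 was at the threshold and was lost under 4 of the other settings tried. It had 18.7 RPM in the oocyte, 6.92 in the morula and 10.9 in the blastocyst. SLC25A1, the citrate carrier, stayed between 0.513 and 4.06 RPM in cow and was not called.

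The aspartate/glutamate carriers SLC25A12 and SLC25A13, the other carriers of that shuttle, differed from each other in cow. SLC25A12 had 15.6 RPM in the oocyte, 17.3 at the 2-4 cell stage, 286 at the 8-16 cell stage, 269 in the morula and 4.30 in the blastocyst. It rose 16.5-fold into the 8-16 cell stage (13.1 to 21.0) and fell 62.5-fold from morula to blastocyst (48.3 to 82.4), so a comparison of oocyte and blastocyst alone, with a difference of −1.65, misses it. Cow SLC25A13 had 36.9, 49.6, 70.0, 106 and 41.5 RPM and was not called at any step. The share of SLC25A12 in the reads of both went from 29.7% in the cow oocyte to 80.4% at the 8-16 cell stage and 9.40% in the blastocyst.

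In pig both genes were highest in the oocyte. SLC25A12 had 427, 149, 133, 266 and 119 RPM, and SLC25A13 had 197, 134, 85.0, 44.0 and 62.2 RPM. Neither was called, with differences of −1.83 and −1.65 from oocyte to blastocyst. The pig SLC25A12 row overlaps HAT1, a histone acetyltransferase gene on the other strand, over 27.3% of its span. HAT1 had 408, 136, 126, 222 and 83.7 RPM, a course close to that of SLC25A12 at every stage, so the pig level of SLC25A12 and its share (52.7% to 85.8%) cannot be told apart from HAT1 reads.

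Of the other amino acid carriers in cow, SLC25A44, which carries branched-chain amino acids, had 154 RPM in the oocyte, 214 at the 2-4 cell stage, 157 at the 8-16 cell stage, 42.1 in the morula and 17.3 in the blastocyst. It fell 8.86-fold from oocyte to blastocyst (7.67 to 10.3). SLC25A15, the ornithine carrier of the urea cycle, had 29.8, 37.4, 3.13, 5.64 and 14.7 RPM. It fell 11.95-fold into the 8-16 cell stage (7.24 to 21.0) and had a higher value again in the blastocyst, so oocyte and blastocyst differed by only −0.98.

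SLC25A29, which carries basic amino acids, was low until the blastocyst in both species. It had 0 to 2 reads in the first 4 cow libraries and 10.8 RPM in the blastocyst. The first 4 pig libraries had 0 to 4 reads and the last 5.90 RPM. Both were called from oocyte to blastocyst, but against 2 reads and 1 read the ratios of 26.6 and 19.9 have intervals of 7.24 to 222 and 3.22 to 822, and the pig call was lost with quantile normalisation.

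SLC25A38, a glycine carrier needed for haem synthesis, was called in pig only, where it had 15.7, 10.6, 33.8, 102 and 19.6 RPM. It fell 5.21-fold from morula to blastocyst (4.02 to 6.82). In cow it stayed between 3.24 and 18.2 RPM.

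SLC25A22, the glutamate carrier, was called in opposite directions. In cow it had 17.9, 44.8, 8.65, 1.03 and 1.20 RPM and fell 14.9-fold from oocyte to blastocyst (8.79 to 26.7). The pig row had 2 reads (0.592 RPM), 1.21 RPM, 2.21 RPM, 2 reads (0.666 RPM) and 30.3 RPM, a ratio of 51.2 (13.8 to 428). The pig row shares 76.1% of its span with CD151, a membrane protein gene on the other strand, which had 5.92, 2.17, 26.8, 75.9 and 1312 RPM. The pig blastocyst value of SLC25A22 cannot be told apart from CD151 reads, and no row of the cow table overlaps cow SLC25A22.

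Of the carriers of cofactors and nucleotides, the pyrimidine nucleotide carriers SLC25A36 and SLC25A33 had a marked peak. They bring the building blocks of mitochondrial DNA and RNA into the matrix. SLC25A36 had 19.5 and 25.2 RPM in the cow oocyte and 2-4 cell embryo, 444 at the 8-16 cell stage, 632 in the morula (608 to 658) and 89.6 in the blastocyst. It rose 17.6-fold into the 8-16 cell stage (14.6 to 21.5) and fell 7.05-fold from morula to blastocyst (6.59 to 7.55), which left it 4.60-fold above the oocyte (3.74 to 5.72), a call that median scaling removed. Pig libraries had 207, 147 and 151 RPM before the morula, 841 in the morula (808 to 874) and 214 in the blastocyst. The pig rise came one step later, 5.57-fold into the morula (5.05 to 6.15), and the value after it, with a difference of −1.97, just missed the threshold for a fall. SLC25A36 was thus highest in the morula in both species and took 37.4% of all carrier reads there in cow and 41.7% in pig.

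SLC25A33 was called higher at the same step as SLC25A36 in each species, but in cow its level was highest at the 8-16 cell stage and not in the morula. In cow it had 2.43, 3.38, 113, 38.2 and 37.2 RPM, with a rise of 33.4-fold into the 8-16 cell stage (20.1 to 60.0). The pig values were 4.44, 3.38, 1.90, 20.6 and 16.1 RPM, with a rise of 10.9-fold into the morula (4.73 to 30.8). SLC25A36 kept 70.7% to 94.3% of the reads of both genes in cow and 93.0% to 98.8% in pig.

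SLC25A32, which carries folate and is linked to flavin supply, fell in both species. In cow it had 58.2, 57.0, 115, 23.3 and 13.5 RPM, 4.30-fold lower in the blastocyst than in the oocyte (3.57 to 5.19). That call was lost when reads were scaled to gene-row reads outside the mitochondrial genome, with a difference of −1.67. In pig it had 256, 210.0, 187, 79.3 and 3.22 RPM, 79.7-fold lower (45.4 to 155).

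SLC25A26 carries S-adenosylmethionine, the methyl donor, into mitochondria. It was not called in any comparison. Its level lay between 58.0 and 93.4 RPM in cow and between 20.1 and 84.3 RPM in pig, highest in the morula of both. The morula interval overlapped that of the 2-4 cell stage in cow (80.7 RPM). In pig it just overlapped that of the 8-16 cell stage (65.4 RPM). The coenzyme A carrier SLC25A16 and the carnitine/acylcarnitine carrier SLC25A20, which brings fatty acids in for oxidation, were called in pig only, at the step to the morula. SLC25A16 went from 3.47 to 37.0 RPM there, a 10.6-fold rise (5.72 to 21.9), after 5.63 and 7.25 RPM and before 10.5 RPM. SLC25A20 went from 3 reads (0.947 RPM) to 38.6 RPM, a ratio of 40.8 (13.6 to 201), after 7.11 and 5.80 RPM and before 12.9 RPM. In cow SLC25A16 stayed between 20.6 and 33.1 RPM and SLC25A20 between 11.0 and 43.6 RPM, both highest in the morula as in pig, although for SLC25A16 the oocyte was within counting error of it (32.9 RPM).

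The peroxisomal carrier SLC25A17 fell in cow from 70.3 RPM at the 2-4 cell stage to 14.4 RPM at the 8-16 cell stage, 4.90-fold (3.81 to 6.36), after 65.3 RPM in the oocyte and before 47.7 and 24.3 RPM. This call was lost under median scaling and quantile normalisation. In pig it stayed between 9.48 and 24.0 RPM.

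**Figure D3:**
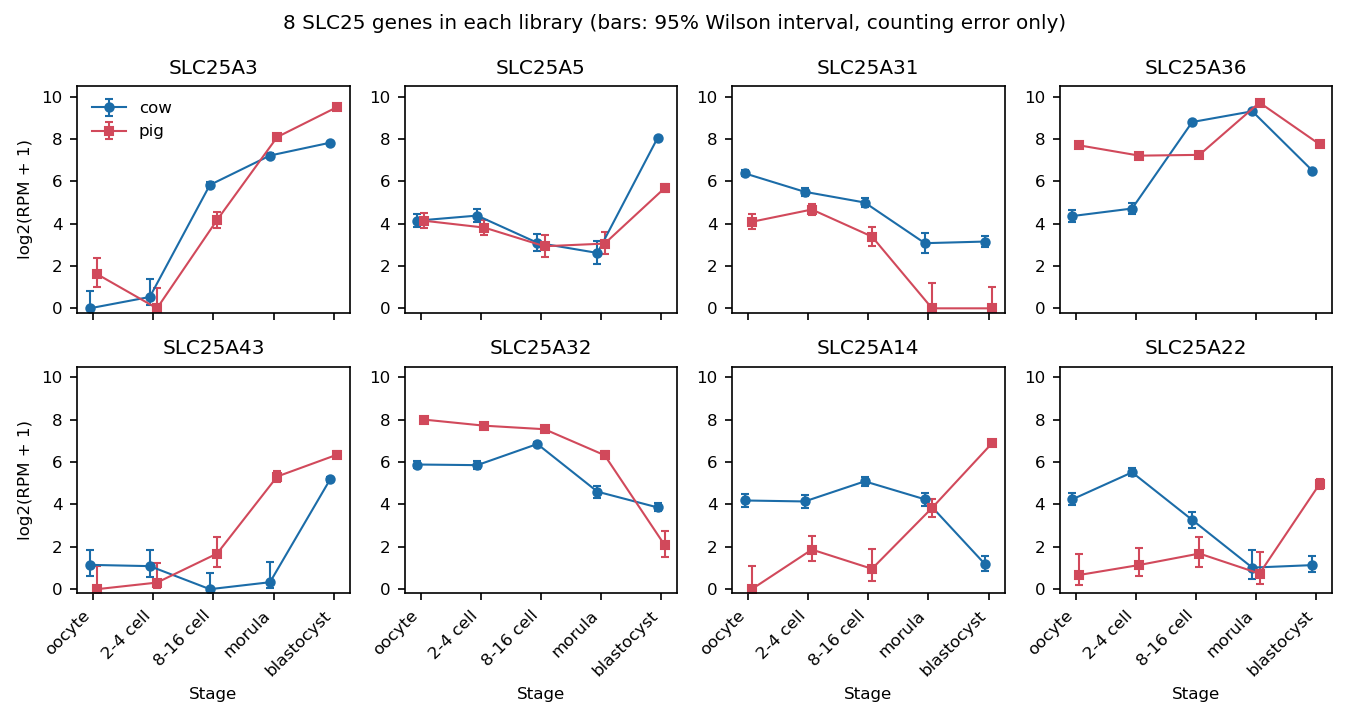
Level of 8 members over the 5 stages (x axis) in cow (circles) and pig (squares), as log2(RPM + 1) on the y axis, 1 library per point with 95% Wilson bars for counting error. SLC25A36 peaks in the morula at 632 RPM in cow and 841 RPM in pig, SLC25A32 ends at 13.5 and 3.22 RPM, and SLC25A14 ends at 1.27 RPM in cow and 119 RPM in pig.

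Mitoferrins carry iron for haem and iron-sulphur clusters. SLC25A28, the mitoferrin of most tissues, had 5.07, 11.9, 55.0, 3.08 and 29.0 RPM over the cow stages. It was therefore called at each of the last 3 cow steps, higher, then lower by 17.9-fold (10.1 to 35.0), then higher, and rose 5.71-fold over the whole course (3.82 to 8.94). The first of these calls was lost when libraries were thinned to the same depth. Pig libraries held 0 reads of it in the oocyte, then 2.66 RPM, 1 read (0.316 RPM), 10.3 RPM and 7.24 RPM, at least 8.15-fold higher in the blastocyst than in the oocyte. SLC25A37, the mitoferrin of red cell precursors, had 3 reads (0.609 RPM) in the cow oocyte, 0 reads at both cleavage stages, 5.90 RPM in the morula and 22.6 RPM in the blastocyst. It held 0 of 299 mitoferrin reads at the cow 8-16 cell stage, which allows up to 1.0%, 65.7% in the morula (49.2 to 79.2) and 43.8% in the blastocyst (40.2 to 47.4).

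Glutathione enters mitochondria through SLC25A39 and its relative SLC25A40. SLC25A40 fell in pig, with 42.9, 46.2, 24.3, 15.7 and 5.63 RPM, 7.62-fold from oocyte to blastocyst (4.81 to 12.7). In cow it lay between 7.89 and 15.6 RPM and was not called. SLC25A39 was not called in either species, with 2.39 to 7.30 RPM in cow and 0 to 6.70 RPM in pig. The pig SLC25A39 row overlaps RUNDC3A over 30.9% of its span, and RUNDC3A had 5.36 RPM in the blastocyst and no more than 0.999 RPM before it.

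Of the relatives of the uncoupling proteins, SLC25A14 was called in opposite directions in the species. It had 17.2, 16.7, 33.1, 18.0 and 1.27 RPM in cow, 14.1-fold lower in the blastocyst than in the morula (8.33 to 25.2) and 13.6-fold lower than in the oocyte (8.10 to 24.0). In pig it had 0 reads in the oocyte, 2.66 RPM, 3 reads (0.947 RPM), 13.3 RPM and 119 RPM, at least 133-fold higher in the blastocyst than in the oocyte and 8.90-fold higher than in the morula (6.43 to 12.6). Neither row overlaps another gene row, and both lie on chromosome X, at 14203647 to 14243769 in cow and 106828946 to 106859122 in pig. SLC25A27 fell in cow from 15.9 RPM in the morula to 1.13 RPM in the blastocyst, 14.1-fold (8.03 to 26.2), after 7.10, 10.1 and 36.1 RPM. In pig it lay between 15.5 and 33.0 RPM and was not called. SLC25A30, a cow row only, was not called at any step, with 54.6, 58.6, 132, 49.5 and 148 RPM.

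Of the remaining members, SLC25A46, which takes part in shaping mitochondria, had 0 reads, 3 reads (0.676 RPM), 7.36, 15.6 and 24.5 RPM over the cow stages, at least 40.2-fold higher in the blastocyst than in the oocyte. In pig it had 6.22, 8.46, 21.2, 67.3 and 10.2 RPM, and it fell 6.60-fold from morula to blastocyst (4.65 to 9.60). SLC25A35 fell in cow from 11.6 RPM in the oocyte to 0.564 RPM in the blastocyst, 20.5-fold (9.73 to 49.8). In pig it had 17.8, 10.6, 22.1, 2.66 and 4.29 RPM and fell 8.30-fold into the morula (3.99 to 19.97). The pig SLC25A35 row shares 40.2% of its span with RANGRF on the other strand, which had 17.5, 10.6, 21.2, 2.33 and 4.29 RPM, so reads of the 2 genes cannot be told apart. SLC25A34 had reads in the cow blastocyst only (1.41 RPM), and SLC25A53 had at most 4 reads, in the oocyte, in each species.

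Set side by side, 28 members were compared from oocyte to blastocyst in both species. Of these, 5 were higher in both (SLC25A3, SLC25A25, SLC25A28, SLC25A29 and SLC25A43), where 11.1% of all 8567 shared symbols were. The 2 lower in both were SLC25A31 and SLC25A32 (8.49% of all shared symbols), and the 2 called in opposite directions were SLC25A14 and SLC25A22 (3.03% of all). A further 7 were called in cow only, 1 in pig only (SLC25A40) and 11 in neither. The difference had the same sign in 18 of the 28. Spearman's rho between the cow and pig differences was 0.41 over the 28 members and 0.49 over all shared symbols. It is given as a description without a p-value, since genes of 1 library share its depth and composition. Whether any gene's change differed between the species could not be tested with 1 library per stage.

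**Figure D4:**
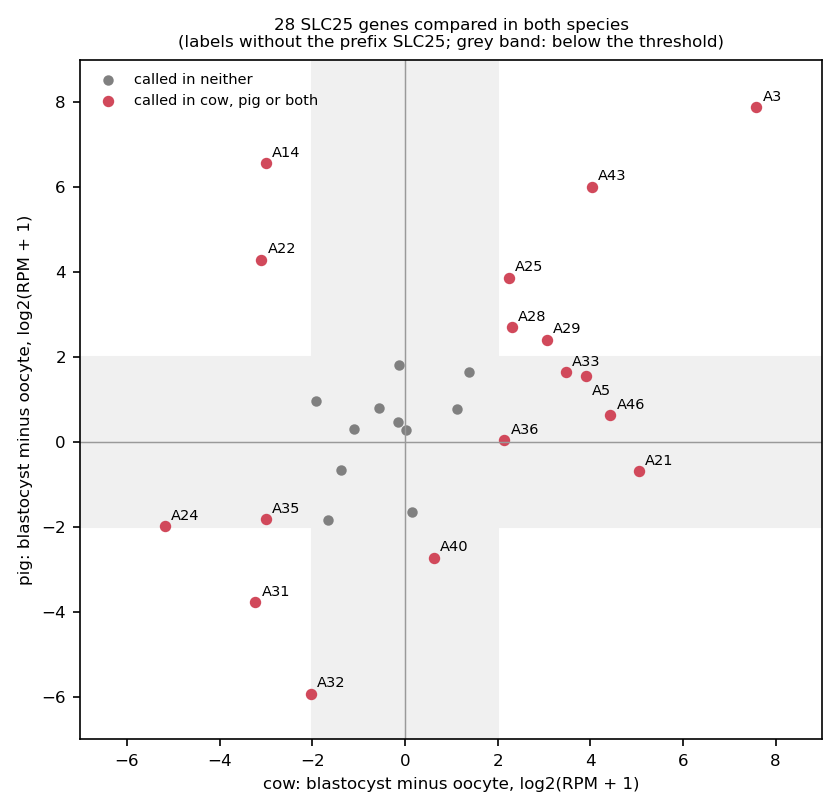
Difference of log2(RPM + 1) from oocyte to blastocyst in cow (x axis) and pig (y axis) for the 28 members compared in both species, 1 point per gene; labels leave out the prefix SLC25 and the grey bands mark differences under the threshold of 2. SLC25A3 lies far up in both (7.58 in cow, 7.89 in pig), SLC25A31 and SLC25A32 lie below in both, and SLC25A14 lies at −3.01 in cow and 6.56 in pig.

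When the rise into the 8-16 cell stage in cow was set against the rise into the morula in pig, 4 of 26 members compared in both were higher in both (SLC25A3, SLC25A28, SLC25A33 and SLC25A36), which is 50% of the 8 higher in cow and 50% of the 8 higher in pig. These 2 steps were paired after earlier results of these data were known. Over all shared symbols 231 of 8474 (2.73%) were higher in both steps, which is to be set against the 4 of 26 members. The 50% has no counterpart over all symbols here. SLC25A3 was also called higher in pig into the 8-16 cell stage (a difference of 3.89), so its pig rise began at the same step as in cow. The stage of the highest level was the same in both species for 10 of 29 members (34.5%, against 30.1% of 9955 shared symbols). It was the blastocyst for SLC25A3, SLC25A5, SLC25A29 and SLC25A43, and the morula for SLC25A16, SLC25A20, SLC25A26 and SLC25A36. It was the oocyte for SLC25A24 and SLC25A53, the last of which rests on 4 reads in each species. The morula intervals of SLC25A16 in cow and SLC25A26 in both species overlapped that of another stage.

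All member reads of a library together made up 883 RPM in the cow oocyte (858 to 910), 1010 at the 2-4 cell stage, 1785 at the 8-16 cell stage, 1689 in the morula and 1337 in the blastocyst (1318 to 1356). In pig the sums were 1337, 860.2, 838, 2018 and 1643 RPM. The blastocyst sum was 1.51 times that of the oocyte in cow and 1.23 times in pig. Counted per gene-row read outside the mitochondrial genome, the cow ratio was 2.00; this scaling leaves out both the mitochondrial reads (4.40% of the cow oocyte and 30.2% of the cow blastocyst library) and the reads outside gene rows. A few genes carried each sum: the 3 with most reads held 39.0% to 62.1% of it in cow and 56.3% to 68.3% in pig. These were SLC25A44, SLC25A24 and SLC25A31 in the cow oocyte and SLC25A5, SLC25A3 and SLC25A21 in the cow blastocyst. In the pig oocyte they were SLC25A12, SLC25A32 and SLC25A36, and in the pig blastocyst SLC25A3, SLC25A36 and SLC25A12, with the overlap of pig SLC25A12 and HAT1 as above. SLC25A3 alone made up 44.3% of the pig blastocyst sum.

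The genes that import carriers were read from a separate list: the outer membrane pore, the small chaperones of the space between the membranes and the inner membrane insertase. From oocyte to blastocyst 5 of 15 compared were higher and 2 lower in cow (21.8% and 18.4% of all compared genes), with a median difference of 1.41 (0.18 over all). In pig 5 of 12 were higher, 0 lower (26.0% and 19.2% of all) and 7 did not pass the threshold, with a median of 1.68 (0.43 over all). In cow the largest differences were those of TIMM8B (2.43 to 39.9 RPM), TIMM10 (0 reads to 12.7 RPM) and TOMM5 (5.07 to 66.5 RPM). In pig they were TIMM8A (3 reads to 243 RPM), TIMM13 (1.48 to 52.0 RPM) and TIMM10 (0 reads to 20.4 RPM). The cow genes that fell were TOMM70A, the receptor for carriers on the outer membrane (364 to 60.2 RPM), and TIMM9, a chaperone that works in 1 complex with TIMM10 (28.0 to 4.72 RPM).

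Mitochondrial transporters of other families gave 8 of 18 higher and 0 lower in cow (21.8% and 18.4% of all compared genes), with a median difference of 1.60 (0.18 over all). In pig 5 of 15 were higher and 0 lower (26.0% and 19.2% of all), with a median of 1.73 (0.43 over all), or 1.56 (0.31 over all) with genes at 0 reads set to the limit. VDAC2, a channel of the outer membrane, was among the 3 largest differences in both species. It rose 13.0-fold in cow (11.4 to 14.9; 46.0 to 597 RPM) and 88.3-fold in pig (59.2 to 138; 7.11 to 627 RPM). MICU2, a regulator of the calcium uniporter, rose in cow from 2.64 to 126 RPM, 47.8-fold (27.9 to 89.9). MPC1, a subunit of the pyruvate carrier, rose in cow from 2.64 to 82.9 RPM, 31.4-fold (18.3 to 59.2). In pig the serine transporter SFXN1 went from 0 reads to 39.4 RPM, at least 44.4-fold higher. ABCB8 went from 1 read to 40.2 RPM in pig, a ratio of 136 (24.0 to 5401).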

How the data were processed

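Per the labels' protocols, RNA was isolated with a PicoPure kit, amplified to cDNA with Ovation RNA-Seq System V2 and made into libraries with 8 PCR cycles. The submitters' processing notes name Trim Galore 0.6.4, HISAT2 2.1.0 and the builds UMD3.1 and Sscrofa11.1. Annotation, counting, strand and duplicate handling are not given in the sources used here. The deposited values, 1 table per species, are log2 RPM, as worked out from the values: at least 99.9% of values were whole reads within 0.01 of a read, and 0 reads were written as 0.9 of a read, which was kept in differences. Between 71.7% and 92.7% of reads lay in gene rows. The tables were scaled separately, so differences were taken within a species. Genes of both species were paired by symbol. Members and lists were chosen with earlier results of these data known.

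Members were named if called from oocyte to blastocyst in both species, or in 1 with at least 20 RPM, or at a single step with at least 20 RPM, or if in a group of related carriers; others were added after their values were seen. 1 member, counted among the others, is not reported here. Lists were named by their 3 largest differences and by the members that fell in cow. Other settings were another pseudocount, minimum, threshold, scaling and depth, and leaving out overlapping rows. The scripts used Python 3.11.15, numpy 2.4.6, pandas 2.3.3, scipy 1.17.1 and matplotlib 3.10.9 and were tested on simulated data.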

Additional observations from a re-analysis of the deposited data

Results flagged for a closer look

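Members called in opposite directions in cow and pig at the same comparison are listed here. The difference between the species was not tested, since each stage had 1 library. SLC25A14 differed by −3.01 from oocyte to blastocyst in cow and by 6.56 in pig on the log2(RPM + 1) scale. The same gene differed by −3.06 from morula to blastocyst in cow and by 3.06 in pig. Between the 8-16 cell embryo and the morula, SLC25A28 differed by −3.78 in cow and by 3.11 in pig, where the 8-16 cell library held 1 read. SLC25A22 differed by −3.10 from oocyte to blastocyst in cow and by 4.30 in pig, where its row overlaps that of CD151.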

How the results depend on the processing

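With 1 library per stage no replicate could be left out. No paired analysis was possible because each group held a single sample and no test was run. Under each other pseudocount, minimum, threshold, scaling and depth run, 15 of 18 cow members called from oocyte to blastocyst kept their call. In pig 9 of 10 did. None of the called members changed sign. A pseudocount of 0.5 RPM, a threshold of 1 and no minimum cannot remove a call, so keeping it under these tells nothing. Only the minimum of 5 RPM, the scalings and the thinning could remove one. The rows left out for overlap include called SLC25A35 in cow and called SLC25A22 and SLC25A43 in pig. SLC25A25 was lost in cow with a minimum of 5 RPM, SLC25A32 in cow with scaling to gene-row reads outside the mitochondrial genome and with thinning to the shallowest library, SLC25A36 in cow with median scaling, and SLC25A29 in pig with quantile normalisation.

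A threshold of 1 in place of 2, which admits more genes by construction, gave 19 called members in pig from oocyte to blastocyst (10 at 2) and 13 in the same direction in both species (7 at 2). From the oocyte to the 2-4 cell stage it gave 5 in cow and 8 in pig (0 in each at 2), and from the 2-4 to the 8-16 cell stage 20 in cow (12 at 2) and 9 in pig (1 at 2). From the 8-16 cell stage to the morula it gave 15 in cow (5 at 2) and 17 in pig (11 at 2), and from morula to blastocyst 18 in cow (9 at 2) and 19 in pig (7 at 2). A pseudocount of 0.5 RPM gave 3 called from the pig oocyte to the 2-4 cell stage and 2 at the next pig step. Median scaling and quantile normalisation also gave 2 there. The ratio of summed levels, 1.51 in cow, was 2.00 with gene-row reads outside the mitochondrial genome, 1.33 with median scaling and 1.85 with quantile normalisation. In pig, 1.23 became 1.33 with gene-row reads outside the mitochondrial genome and 1.01 with median scaling.

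The share of called members that were higher moved with scaling. From the pig oocyte to the blastocyst it was 70.0% (7 higher and 3 lower). There it was 53.8% with median scaling (7 and 6) and 54.5% with quantile normalisation (6 and 5). From the cow 2-4 to the 8-16 cell stage it was 66.7% (8 and 4), 90.0% (9 and 1) and 88.9% (8 and 1). From pig morula to blastocyst it was 57.1% (4 and 3), and 44.4% with quantile normalisation (4 and 5). In pig the share thus moved mainly because more members were called lower. Among members called in the same direction in both species it was 71.4%, 83.3% with gene-row reads outside the mitochondrial genome, 55.6% with median scaling and 50% with quantile normalisation. These settings shifted the median of all genes from oocyte to blastocyst by 0.42 (gene-row reads outside the mitochondrial genome), −0.16 (median) and −0.20 (quantile) in cow and by −0.29 (median) and −0.41 (quantile) in pig. The causes were not tested. Without members whose span overlaps another gene row, 17 were called in cow and 8 in pig from oocyte to blastocyst. Taking 0 reads as 0 RPM, chosen after seeing the data, gave the same counts at every comparison. Shares of glutamate carrier reads, and of mitoferrin reads in pig, could not be given with 1 row each. Libraries of 3002751 to 5432346 reads limit what can be said of members below about 1 RPM.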

Other observations

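Some genes belong to the carrier family by sequence but are not named SLC25A. In cow, UCP2, an uncoupling protein, rose from 1.22 RPM in the oocyte to 18.8 RPM in the blastocyst, 15.4-fold (95% interval 6.99 to 42.4). MTCH1, an outer membrane relative, rose from 23.9 to 106 RPM, 4.42-fold (3.66 to 5.38). MTCH2, which inserts proteins into the outer membrane, had 98.8 and 57.8 RPM in these libraries, a difference of −0.76 that did not pass the threshold. UCP3 had 6 reads in the cow oocyte and 0 in the blastocyst, and UCP1, the uncoupler of brown fat, had 0 reads in both. In pig, UCP2 had 3 reads in the oocyte and 0 in the blastocyst, and UCP3 had 0 in both.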
